A study of Mus musculus with 2 samples.

Results

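The 34 genes described here make, regulate or move cholesterol and fatty acids. They were taken from a list of symbols, matched on the array through RefSeq accessions, and all 34 of 34 were found among 20433 genes with a symbol. The list holds 7 genes of the mevalonate steps, 11 of the squalene and sterol steps, 5 regulators, 8 of fatty acid synthesis and 3 of sterol transport, efflux and oxysterol formation. The study compared 2 stable lines of ATDC5, a mouse chondrocyte line, each made with a lentivirus. One line overexpressed GFP, a fluorescent protein, and served as the control, while the other overexpressed HES1, a repressor of transcription that acts below Notch receptors. Each line was grown for 3 days as a monolayer on 60 mm dishes, and its total RNA was read on 1 single-colour Agilent array. There was thus 1 array per group, no difference below has a replicate check, and no test was run. The promoter of the transgenes and the number of clones behind each line are not given in the sources used here.

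Cells make cholesterol from acetyl-CoA through mevalonate, isoprenoids and squalene, and they make fatty acids from the same precursor. Most enzymes of both routes are transcribed under the SREBP factors, which SCAP carries from the endoplasmic reticulum to the Golgi for cleavage, and which INSIG proteins hold back when sterols are plentiful. LXR receptors act in the other direction on sterol balance, since oxysterols activate them and they switch on efflux genes. Cartilage cells use lipids for membranes and signals, and cholesterol also modifies hedgehog proteins, which steer growth plate chondrocytes.

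Signals are in scanner units, scaled to a common 75th percentile of 1057.2, so that a gene can be followed across the arrays while the levels of 2 genes cannot be ranked. Spots well above background made up 54.6% of the GFP array and 56.6% of the HES1 array. Of the genes with a symbol, 14273 were detected (well above background on 1 array or both) and form the background for every count of signal differences. The single Hes1 probe gave 10.2 and 10.3, below background on both arrays, so it checked neither label. Of 12 chondrocyte markers, 9 were well above background on both arrays, among them Col2a1, Acan and Sox9. Hapln1 and Matn1 were above background on neither array. Of the 10 chondrocyte markers measured, 9 were below 0, where 55.0% of all genes were. Their median log2 difference, HES1 minus GFP, was -0.33, with Col2a1 at -0.90, and their summed signal went from 55330 to 44273. All 5 osteoblast markers measured were at least 1.5-fold lower (median -1.07), against 14.6% of all genes. Their summed signal was 23911 in the GFP line and 13394 in the HES1 line. The lines also differed in other programmes. All 13 interferon-stimulated genes measured were at least 2-fold higher in the HES1 line, against 11.1% of all genes. All 10 proliferation genes were at least 2-fold lower there, against 4.95% of all genes. Summed signals of these lists went from 13324 to 1478000 and from 219805 to 79221. Such sums follow their brightest probes. In the GFP line Sox5 (34961, log2 difference -0.13) was the brightest of the chondrocyte sum and Birc5 (80498) of the proliferation sum. The part of any of these programmes and markers in the lipid gene differences was not tested.

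Genes of lipid synthesis were lower in the HES1 line as a group, by modest amounts. All 34 members were well above background on both arrays, so none was lost to a filter. The HES1 signal was below the GFP signal for 31 of 34 members, where 55.0% of all genes were below. The median log2 difference, HES1 minus GFP, was -0.52 for the members and -0.06 for all genes. At 1.5-fold, 15 members were lower against 14.6% of all genes, and 1 was higher against 17.4%. At 2-fold, 2 members were lower (Fads1 and Fads2) against 4.95% of all genes, and 1 was higher (Abca1) against 11.1%. The share of members past 2-fold was thus near the background in the lower direction, and most members differed by less than that. The scanner's error model gave 33 members other than Abca1 a technical error of 0.20 to 0.23 on the log2 difference. Beyond 2 such errors, 22 members were lower, against 21.9% of all genes, and 11 lay within them. This error leaves out differences between cultures.

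**Figure D1:**
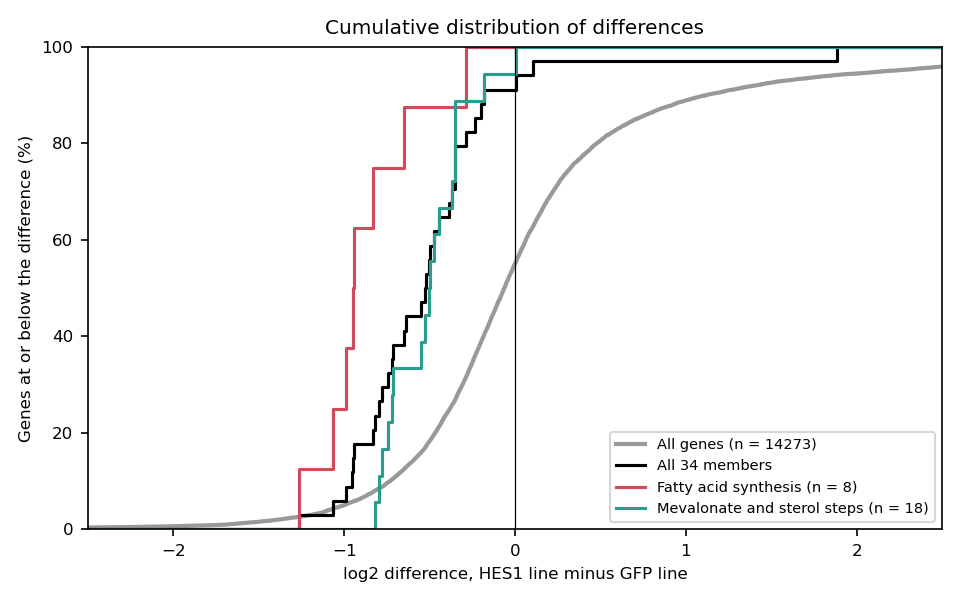
Cumulative share of genes (%) at or below each log2 difference, HES1 line minus GFP line, for all 14273 genes, the 34 members, the 8 fatty acid genes and the 18 mevalonate and sterol genes; differences beyond 2.5 are not drawn. The curve of all genes crosses 0 at 55.0%, while 31 of the 34 members lie to the left of 0.

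**Figure D2:**
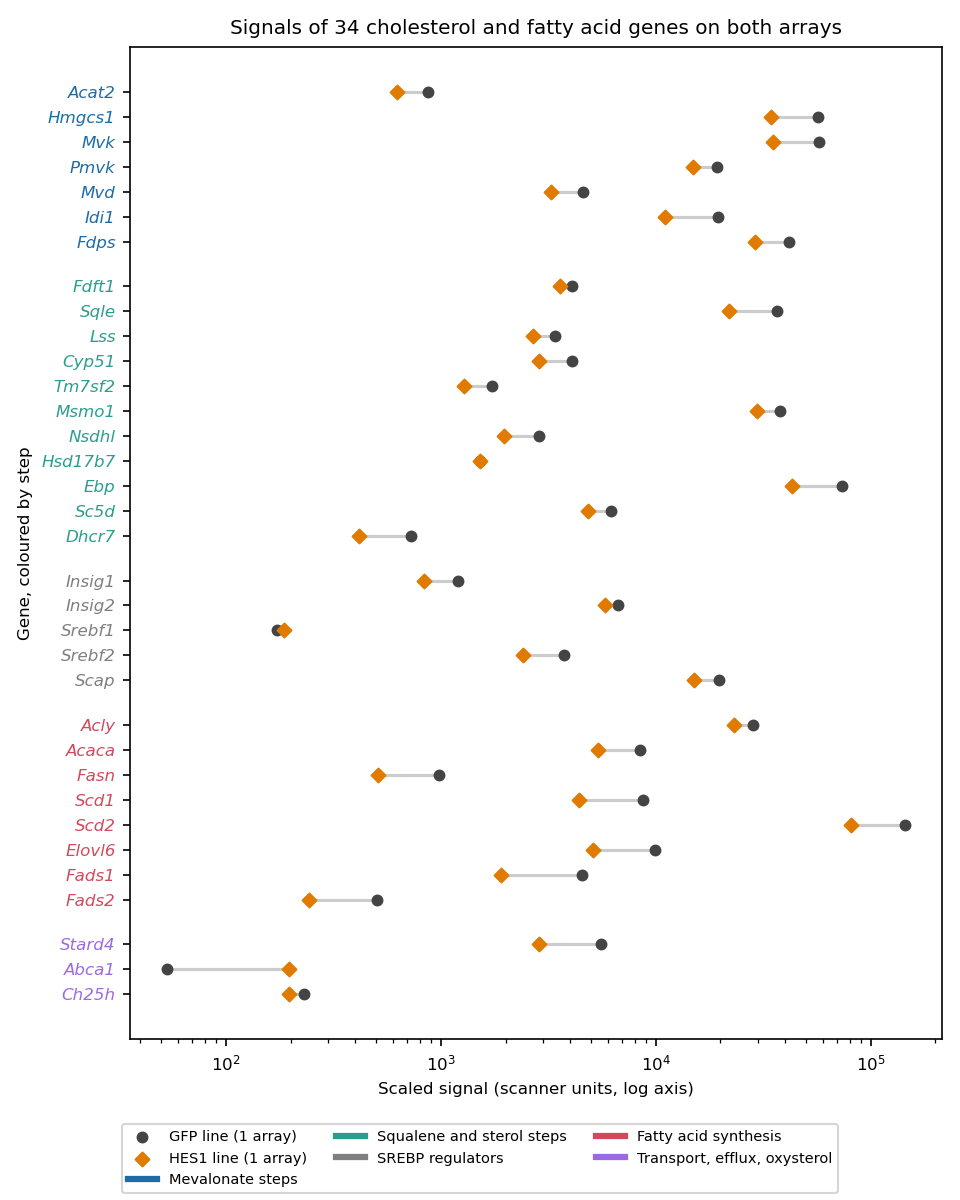
Scaled signal of each member on the GFP array (circles) and the HES1 array (diamonds), on a log axis in scanner units, with gene names coloured by step. The diamond lies left of the circle for 31 members, and Abca1 has the widest gap in the other direction, from 53.3 to 197.

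Promoter letters, which the choice of genes did not use, were counted next. The motifs were chosen after the windows had been searched, so the counts describe these windows and are no independent support. SREBPs bind short sterol regulatory elements and act with NF-Y, which binds CCAAT boxes. RefSeq windows from 250 bases before to 50 after the start (build GRCm38.p6) were at hand for 27 of the 34 members, in 35 windows, and each motif was searched on both strands. The letters CCAAT occurred in 20 of these 27 genes, against 41.1% of 27025 genes with a window, detected here or not. Counted by window, they occurred in 60% of the member windows and 37.4% of 32851 windows. All 9 sterol-step genes with a window held CCAAT, but 2 of 5 fatty acid genes did. A sterol regulatory core, CACNCCAC, was in 3 members (Acat2, Hmgcs1 and Insig1) and in 7.12% of all genes. The E-box CACGTG was in 6 members and 8.09% of all genes. The N-box CACNAG, a site that HES proteins bind, was in 14 of 27 members and 46.1% of all genes. By step it was in 3 of 6 mevalonate, 3 of 9 sterol, 4 of 5 regulator, 4 of 5 fatty acid and 0 of 2 transport genes. Genes with several windows, such as Insig2 and Srebf1 with 3 each, have more letters in which to match. Counted by window, the N-box was in 48.6% of the member windows and 42.5% of all windows. A match describes letters in a window and not a bound site.

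5 promoter windows are shown to set the shared letters beside the values: 4 from genes that were lower and that of Abca1, which was higher. They lie in GRCm38.p6 at chr13:119690101-119690400 (plus strand) for Hmgcs1, chr13:8885356-8885655 (plus) for Idi1, chr5:28071162-28071461 (plus) for Insig1, chr11:120824498-120824797 (minus) for Fasn and chr4:53159846-53160145 (minus) for Abca1. Each is written from 5′ to 3′, with matches to the motifs above in capitals on either strand, so that a CCAAT box on the other strand reads as ATTGG.
Hmgcs1: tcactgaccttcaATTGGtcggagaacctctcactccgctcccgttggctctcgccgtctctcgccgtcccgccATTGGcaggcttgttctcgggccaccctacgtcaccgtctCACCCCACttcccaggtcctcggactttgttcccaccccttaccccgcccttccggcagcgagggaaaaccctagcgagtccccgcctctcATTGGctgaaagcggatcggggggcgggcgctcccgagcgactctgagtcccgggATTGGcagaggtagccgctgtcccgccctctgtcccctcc
Idi1: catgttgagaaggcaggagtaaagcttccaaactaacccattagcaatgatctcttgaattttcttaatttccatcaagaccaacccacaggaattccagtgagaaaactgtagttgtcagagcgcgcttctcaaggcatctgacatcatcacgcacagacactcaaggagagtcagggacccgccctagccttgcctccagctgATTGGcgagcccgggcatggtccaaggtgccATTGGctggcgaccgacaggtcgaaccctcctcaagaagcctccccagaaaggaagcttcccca
Insig1: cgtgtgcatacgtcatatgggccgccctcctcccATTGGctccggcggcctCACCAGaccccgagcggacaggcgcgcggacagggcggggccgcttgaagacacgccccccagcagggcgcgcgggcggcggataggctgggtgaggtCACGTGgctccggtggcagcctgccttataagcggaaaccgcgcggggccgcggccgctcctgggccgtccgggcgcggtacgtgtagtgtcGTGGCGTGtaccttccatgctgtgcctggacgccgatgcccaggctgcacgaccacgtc
Fasn: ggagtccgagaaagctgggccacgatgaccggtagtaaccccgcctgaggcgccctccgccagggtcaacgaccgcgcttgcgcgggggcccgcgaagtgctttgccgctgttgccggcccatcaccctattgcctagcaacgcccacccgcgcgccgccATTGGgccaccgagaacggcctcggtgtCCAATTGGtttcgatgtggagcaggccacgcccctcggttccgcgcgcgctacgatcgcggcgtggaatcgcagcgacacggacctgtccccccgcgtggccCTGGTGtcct
Abca1: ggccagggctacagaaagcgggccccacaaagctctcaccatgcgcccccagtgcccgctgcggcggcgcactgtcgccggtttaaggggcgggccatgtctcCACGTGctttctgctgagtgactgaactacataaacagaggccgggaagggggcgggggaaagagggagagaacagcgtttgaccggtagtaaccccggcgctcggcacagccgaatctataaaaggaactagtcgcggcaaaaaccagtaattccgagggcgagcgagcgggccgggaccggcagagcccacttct
Hmgcs1 held 4 CCAAT boxes and 1 sterol regulatory core, whose first base lies at -136 from the start. Idi1 held CCAAT boxes at -45 and -14. Insig1 held a sterol regulatory core at -9, a CCAAT box at -216, an E-box at -101 and an N-box at -199. Fasn held 3 CCAAT boxes, of which those at -62 and -59 overlap on opposite strands, and an N-box at 41. Abca1 held an E-box at -147 and no CCAAT box in this window. These 5 windows do not stand for the list. Fads2 (-1.06), Elovl6 (-0.95) and Acaca (-0.65) were lower without CCAAT in their windows. Hsd17b7 (0.01) and Srebf1 (0.11) held both CCAAT and the N-box letters and were not lower.

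Every gene of the mevalonate steps was lower in the HES1 line, with a median of -0.53 over 7 genes. Hmgcs1, which condenses acetyl-CoA units into HMG-CoA, had signals of 56560 in the GFP line and 34272 in the HES1 line, 1.65-fold lower. Mevalonate kinase, Mvk, went from 57484 to 35006 (log2 difference -0.72), and its second probe gave -0.86. Idi1, the isomerase that makes the reactive isoprenoid unit, had the lowest difference of the group by chosen probes. Its signals were 19571 and 11083, a log2 difference of -0.82 with a technical error of 0.20. Fdps, which joins these units into farnesyl diphosphate, went from 41591 to 28888 (-0.53). Mvd, the decarboxylase before Idi1, stood at -0.50, and Acat2, the thiolase that opens the route, at -0.47. Phosphomevalonate kinase, Pmvk, had the smallest difference, -0.37 and -0.33 by its 2 probes, and its chosen probe lay within 2 technical errors.

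The squalene and sterol steps were lower too, by a median of -0.44 over 11 genes. Of these, 6 were lower by more than 2 technical errors, against 21.9% of all genes. Fdft1, Lss, Msmo1, Hsd17b7 and Sc5d lay within 2 such errors. Fdft1, squalene synthase, which commits farnesyl diphosphate to sterols, had signals of 4091 and 3603. That difference of -0.18 was smaller than its error. Sqle, the squalene epoxidase and a rate-controlling step, was 1.67-fold lower, at 21822 against 36470. Lss, which folds the epoxide into lanosterol, stood at -0.35. Of the enzymes that trim lanosterol, the demethylase Cyp51 stood at -0.50, the reductase Tm7sf2 at -0.44, the oxidase Msmo1 at -0.35 and the dehydrogenase Nsdhl at -0.55. A second Nsdhl probe gave -0.88 and a second Tm7sf2 probe -0.19. Hsd17b7, the ketone reductase that works with Nsdhl, was the exception among the enzymes. Its signals were 1521 and 1528, and its other probe gave 0.08.

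Toward the end of the route, Ebp, the sterol isomerase, went from 73485 to 42799, a log2 difference of -0.78. Dhcr7, the reductase that completes cholesterol and removes the precursor of vitamin D, went from 725 to 417 (-0.80). Sc5d, the desaturase that acts between them, stood at -0.35. Over the 18 genes of the mevalonate and sterol steps, 17 were below 0, where 55.0% of all genes were.

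Fatty acid genes showed the largest shift of the list, with a median of -0.95 over 8 genes, all of them lower. All but Acly were lower by more than 2 technical errors, against 21.9% of all genes. By chosen probes the first enzymes differed least. Acly, which makes cytosolic acetyl-CoA from citrate, had signals of 28252 and 23116, 1.22-fold lower, and its second probe gave -0.42. Acaca, the acetyl-CoA carboxylase that makes malonyl-CoA, stood at -0.65 (8458 and 5394). Its other probes gave -0.73 and -1.01, the last not well above background in the HES1 line. Fasn, which builds palmitate, went from 984 to 511, a log2 difference of -0.94. Elovl6, which lengthens palmitate, went from 9916 to 5129 (-0.95).

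The desaturases, which put double bonds into fatty acids, included both members past 2-fold. Fads1, a desaturase of long polyunsaturated fatty acids, had the lowest difference of all 34 members. It went from 4556 in the GFP line to 1900 in the HES1 line, 2.40-fold lower (log2 difference -1.26, technical error 0.20). Fads2, the desaturase at the head of that route, had signals of 507 and 243, 2.09-fold lower (-1.06). Scd1, which makes oleate from stearate, lay just inside the 2-fold threshold at -0.99, with signals of 8720 and 4398. Its paralog Scd2, the main form in many mouse tissues outside the liver, went from 144424 to 81089 (-0.83). The Scd genes are alike in sequence, so their probes may cross-hybridise. The third gene of the Fads family, Fads3, was singled out after its values were seen and went the other way, at 23885 and 28198 (0.24).

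**Figure D3:**
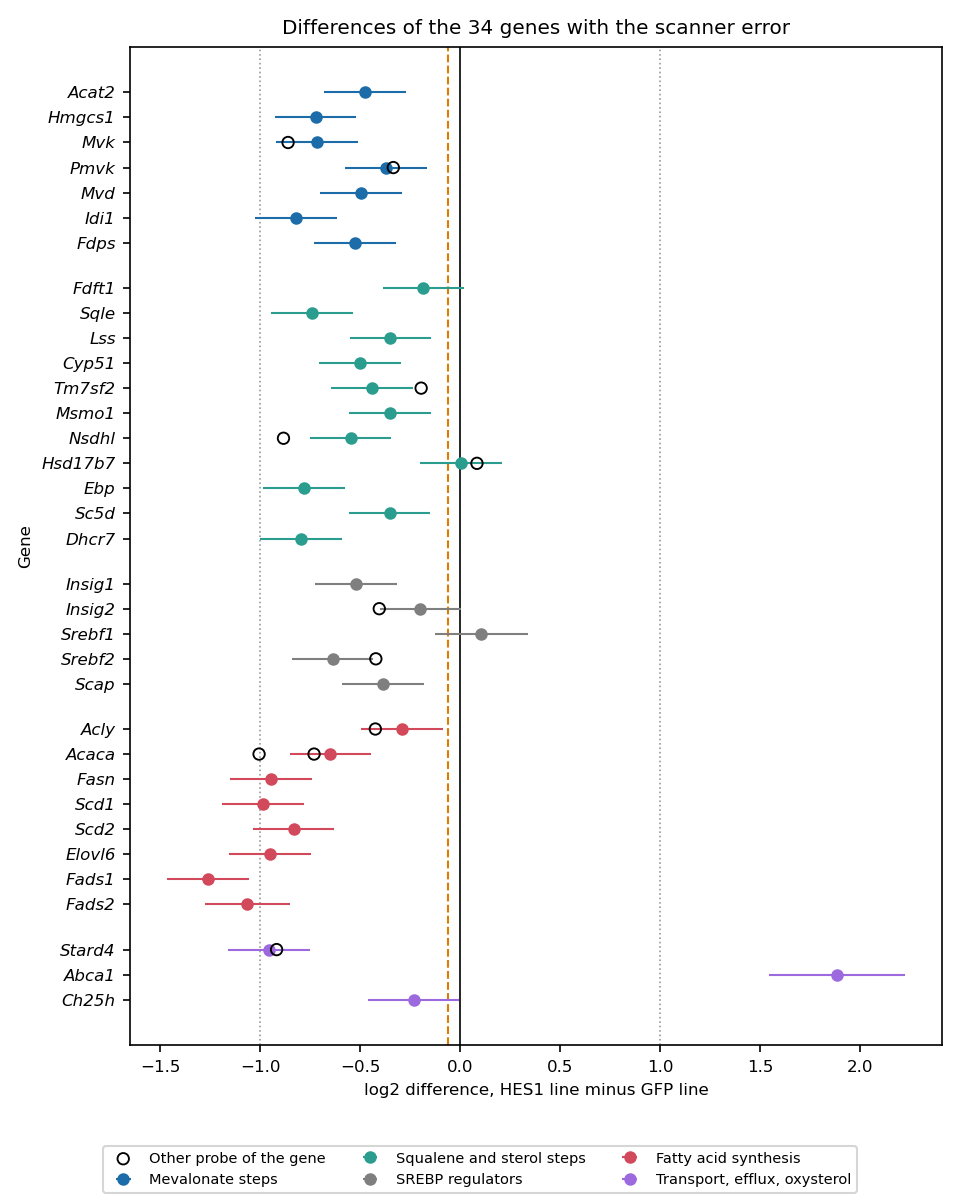
Log2 difference, HES1 line minus GFP line, of each member's chosen probe (filled) with the scanner's technical error as bars, and of its other probes above background (open). Dotted lines mark 2-fold, the dashed line the median of all genes at -0.06. Fatty acid genes from Fasn to Fads2 lie between -0.83 and -1.26.

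Set side by side, 6 of the 8 fatty acid genes (Fads1, Fads2, Scd1, Elovl6, Fasn and Scd2) lay below every one of the 18 mevalonate and sterol genes. The medians of these sets were -0.95 and -0.50. Under quantile normalization, a loess fit and a normexp correction 5 of the 8 lay below them all. This gap between steps was not tested. The order of single genes is not settled by these arrays. Among the 33 members other than Abca1, neighbours in the order were at most 0.20 apart, and the technical error of a difference between 2 genes was 0.29. Fads1 and Acly, at opposite ends of the fatty acid genes, were 0.97 apart.

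The regulators were mixed, with a median of -0.39 over 5 genes. Srebf2 and Insig1 were lower by more than 2 technical errors, while Insig2, Srebf1 and Scap lay within 2 such errors. Srebf2, the SREBP gene that chiefly drives cholesterol synthesis and is itself a target, was 1.56-fold lower at 2406 against 3744. Its second probe gave -0.42. Srebf1, whose products drive mainly fatty acid genes, had signals of 172 and 186, a difference of 0.11 that lay within its error of 0.23. The single Srebf1 probe was not assigned to an isoform. Insig1, a brake on SREBP cleavage and an SREBP target, went from 1198 to 836 (-0.52). Insig2, the second brake, stood at -0.20 and -0.40 by its probes. Scap, the escort of SREBPs, stood at -0.39 (19580 and 14985).

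Sterol transport and efflux genes went opposite ways. Stard4, which carries cholesterol between membranes and is an SREBP2 target, went from 5560 to 2866, 1.94-fold lower, and its second probe gave -0.92. Abca1, the pump that exports cholesterol to apolipoprotein A-I and a target of LXR, was the only member at least 2-fold higher under the scaling used here. Its signals were 53.3 in the GFP line and 197 in the HES1 line, 3.69-fold higher (log2 difference 1.89, technical error 0.34). The GFP signal was near 38.1, the dimmest that counts as detected there, and under a normexp background correction the difference was 0.79. Ch25h makes an oxysterol that blocks SREBP processing, and interferon is known to induce it in mouse macrophages. Here its signals were 232 and 197, a difference of -0.23 about equal to its error of 0.23, beside the interferon-stimulated genes with a median of 7.80.

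10 members had more than 1 probe above background, and in all 10 the probes lay on the same side of 0. The median gap between probes of a member was 0.18 and the largest was 0.36, in Acaca. The other 24 members rest on a single probe.

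Other genes of sterol synthesis and of the SREBP2 programme were mostly lower as well. Over 9 such genes the median was -0.37, with 8 below 0, where 55.0% of all genes were. Past 2-fold were 0, against 4.95% of all genes lower and 11.1% higher. Aacs, which activates acetoacetate for lipid synthesis, went from 10949 to 6802 (-0.69). Pcyt2, an enzyme of phosphatidylethanolamine synthesis, stood at -0.50 (55804 and 39367). Cyb5r3, a reductase that passes electrons to sterol and fatty acid enzymes, stood at -0.48, and its second probe gave -0.50.

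Genes of LXR and of sterol storage gave another picture. The 9 LXR genes and targets had a median of 0.05, and 1 was past 2-fold, upward, against 11.1% of all genes. That gene was Nr1h3, which encodes LXR alpha, at 125 and 594, 4.74-fold higher, and its second probe gave 1.96. Smpdl3a stood at 0.79, but Abcg1, the partner efflux pump of Abca1, stood at -0.64 (117 and 74.9). LXR targets thus lay on both sides of 0. The 17 measured genes of cholesterol storage and transport had a median of 0.06, with 3 past 2-fold, all upward, against 11.1% of all genes. Soat2, which esterifies cholesterol for storage, went from 98.5 to 636 by its single probe, 6.46-fold higher. Soat1, on the same list and singled out after its values were seen, stood at 0.07 (500 and 525). Stard5, a cytosolic sterol carrier related to Stard4, was 2.96-fold higher, and a second probe went from 211 to 844. Vldlr, a lipoprotein receptor, was 2.89-fold higher, and 1.45 on the log2 scale by its second probe. Stard4 and Stard5, of the same family, therefore lay on opposite sides of 0.

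**Figure D4:**
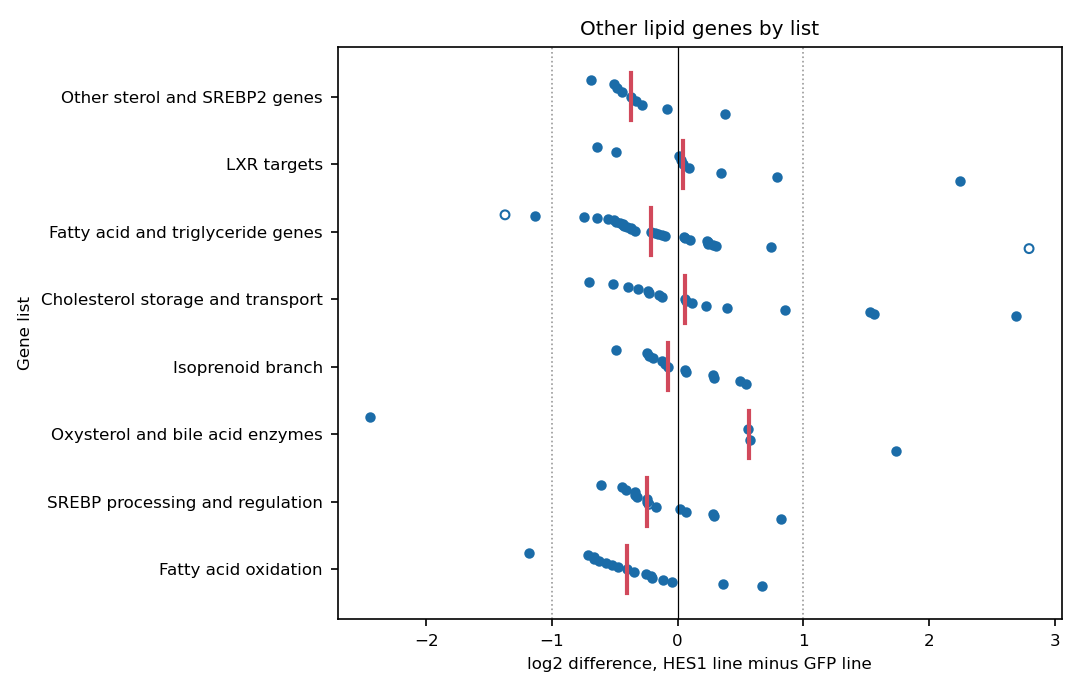
Log2 difference, HES1 line minus GFP line, of each measured gene on the other lipid lists, with the median as a bar; open circles are genes well above background on 1 array. Dotted lines mark 2-fold. The list of other sterol and SREBP2 genes has its median at -0.37, and that of storage and transport at 0.06 with 3 genes past 2-fold.

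Fatty acid and triglyceride genes outside the members had a smaller median difference, -0.21 over 31 measured genes. Of these, 2 were past 2-fold downward (1 by bounds) and 1 upward, against 4.95% and 11.1% of all genes. Acsl3, which activates fatty acids for lipid droplets, was 2.19-fold lower at 1184 against 2597. Me1, a source of NADPH for synthesis, stood at -0.75, and its other probes at -0.56 and -0.79. Acacb, the carboxylase that restrains fatty acid oxidation, stood at 0.74 (1027 and 1718). Acsl6 was detected in the HES1 line alone and was at least 2.26-fold higher there, a bound taken against the dimmest GFP signal that counts as detected. Fads6 was not well above background in the HES1 line and at least 1.58-fold lower. The elongases Elovl1, Elovl4, Elovl5 and Elovl7, singled out after their values were seen, lay between -0.51 and -0.43 by their chosen probes, where Elovl6 stood at -0.95. Second probes gave -0.65 for Elovl4 and -0.35 for Elovl1.

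**Figure D5:**
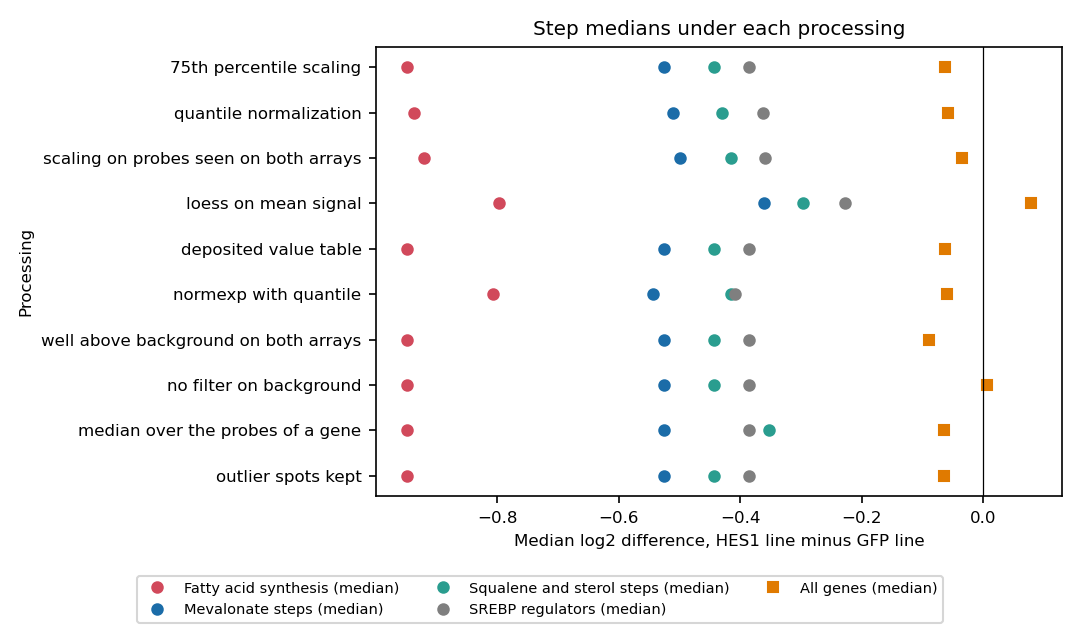
Median log2 difference, HES1 line minus GFP line, of each step and of all genes under 10 ways of processing, the scaling used here at the top. The fatty acid median ran from -0.95 to -0.80 and lay lowest under each, while the all-gene median ran from -0.09 to 0.08.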

How the data were processed

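RNA of 2 ATDC5 lines, 1 array each, was hybridised, and per the submitters' processing notes the images went through Agilent Feature Extraction 10.10.1.1. Each spot's intensity, per the file headers, was corrected for background and detrended, and no step tied the arrays to each other. In the deposited value table this intensity is multiplied by 1 factor per array (1.45 for GFP, 1.53 for HES1).

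Here the processed signal was divided by its 75th percentile over the 59305 non-control spots of the array and put on the log2 scale, starting from the intensity in the deposited scanner files. Spots with an outlier flag on either array were left out (1053), and spots of a probe were averaged. Accessions were named through a RefSeq table of GRCm38.p6 (26869 of 54948 probes), used for names and promoters only. The files are annotated on mm9. A gene is its brightest detected probe. The technical error comes from the scanner's error model, with a median of 0.20. Over 233 probes with at least 8 spots the SD between spots had a median of 0.07. The number of arrays limits the precision.

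No test was run, since each group has 1 array, and members were counted at 2-fold and 1.5-fold beside all genes. Members, lists and motifs were chosen with earlier results of these data known, the motifs after the windows had been searched. All members are named. Of each other lipid list, the 3 largest differences seen on both arrays and any past 2-fold are named, and 3 genes of the sterol list are not reported here. Alternatives covered normalization (limma 3.58.1 for normexp), filters, probe choice and outlier spots.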

Additional observations from a re-analysis of the deposited data

How the results depend on the processing

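All 34 members were measured under all 10 settings, and the list median ran from -0.52 to -0.37. A loess fit on mean signal moved the median of all genes by 0.14, to 0.08, and the share of all genes below 0 from 55.0% to 43.5%. Relative to all genes, the list median was -0.46 with the main scaling and -0.44 after loess. Members below 0 numbered 31 or 32. Under loess 9 members were at least 1.5-fold lower (10.5% of all genes) and 1, Fads1, at least 2-fold lower (3.54% of all genes). Under normexp with quantile normalization 1 was at least 2-fold lower and 0 higher, since Fads2 stood at -0.79 and Abca1 at 0.79. The shares of all genes past 2-fold were smaller there too, 2.38% lower and 5.96% higher. The cause was not tested. Of 306 single-gene values under alternatives, 303 moved by less than the gene's technical error, and Scd2 at -0.63 after loess was the third exception. That count does not measure robustness, since many of the values could hardly move. The background filters and the kept outlier spots changed no member's value, and the deposited table repeats the main scaling. Probe choice cannot move the 24 members with 1 detected probe. No paired analysis was possible because each group has 1 array. With 1 array per group, differences between lines and between cultures cannot be told apart.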

Other observations

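Genes that burn fatty acids were also lower in the HES1 line. Of 17 genes of fatty acid oxidation, 15 were below 0, where 55.0% of all genes were. Past 2-fold downward was 1, against 4.95% of all genes, and the median was -0.40. Acadm, the medium-chain acyl-CoA dehydrogenase, was 2.27-fold lower at 11653 against 26398. Cpt1b stood at -0.71, while Acadl, the long-chain dehydrogenase, stood at 0.67. The isoprenoid branch, which uses the same precursors for prenyl groups, dolichol and ubiquinone, lay near all genes. Of its 13 measured genes 0 were past 2-fold, against 4.95% of all genes lower and 11.1% higher. The median was -0.08, and the ends were Rabggta at 0.54 and Fnta at -0.49. Pdss1, read by 9 spots per array, stood at 0.50 with a technical error of 0.07.

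Enzymes of oxysterols and bile acids lay far on both sides of 0. Cyp39a1, an oxysterol hydroxylase, went from 6795 to 1249, 5.44-fold lower. Hsd3b7, a dehydrogenase of bile acid synthesis, went from 4149 to 13858, 3.34-fold higher, and Cyp46a1 stood at 0.58. The list has 4 measured genes. Of 15 measured genes of SREBP processing and regulation, 0 were past 2-fold, against 4.95% of all genes lower and 11.1% higher. Their median was -0.24. Usf2 stood at 0.82 by its brightest probe and -0.55 by its other probe. Mlxipl stood at -0.61 and 1.11 by its probes, and Sp1 at -0.44. Of 11 adipocyte markers, 7 were measured, with a median of -0.59. Of these, 4 were at least 1.5-fold lower, against 14.6% of all genes. They were Fabp4 at -0.70, Retn at -0.59, and Cd36 and Cebpa, above background in the GFP line alone. Lpl was 2.02-fold higher, and Pparg stood at 0.26. The summed signal, most of it from Pparg and Lpl, was 4388 in the GFP line and 5859 in the HES1 line, so the sum and the median lay on opposite sides. Plin1, Lep and Cidec were above background on neither array. Of 10 macrophage markers, 5 were measured, with a median of 0.04, and Lyz2, Tyrobp, Laptm5 and Adgre1 were above background on neither array. Their summed signal, most of it from Itgam, was 50412 in the GFP line and 25554 in the HES1 line. Itgam stood at -1.07 by its chosen probe and at 0.47 and 0.25 by its other probes.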
